A study of Cavia porcellus with 12 samples.

Results

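The small leucine-rich proteoglycans examined here are *DCN* (decorin), *BGN* (biglycan), *ASPN* (asporin), *LUM* (lumican) and *FMOD* (fibromodulin), 5 of the 11896 genes with a human symbol in the deposited liver expression table of guinea pigs. They were chosen by name, and all 5 were found, each with a count row of its own. The samples were livers of 12 female Dunkin Hartley guinea pigs, 10 weeks old on arrival. For 25 weeks, 6 controls received chow and 6 animals received a diet high in fat with added sucrose and cholesterol. The latter had nonalcoholic steatohepatitis (NASH) and were taken for sequencing because they had bridging fibrosis, so diet and disease cannot be told apart. Each sample was a piece of the left lateral lobe of a liver that had not been perfused, from 1 animal, and is named here by group and animal number. Messenger RNA was sequenced with a stranded kit and single reads.

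These proteins sit in the matrix outside the cell. A curved stack of leucine-rich repeats binds collagen fibrils and sets their width and spacing, and the same domain binds growth factors and cell surface receptors. Decorin and biglycan carry chondroitin or dermatan sulfate chains, and lumican and fibromodulin carry keratan sulfate. In the liver they are made mainly by stellate cells, portal fibroblasts and the myofibroblasts of scars.

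The count table gave between 16980274 and 28636467 counts per control and between 23704607 and 33091460 per animal with NASH. Levels are given as CPM, the count unit normalised for library size, with the library size multiplied by the TMM factor of edgeR, which corrects for a few very abundant transcripts taking up much of a library. This factor ranged from 0.801 to 0.873 over the controls and from 1.116 to 1.244 over the NASH livers, so the groups did not overlap in it. *ALB*, the albumin gene of hepatocytes, took 5.66% to 7.14% of all counts in controls and 2.92% to 4.36% in NASH. Transcript lengths were not used, so a CPM can be compared between animals for the same gene and not between genes.

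*DCN*, *ASPN*, *LUM* and *FMOD* were higher in guinea pigs with NASH than in controls, and *BGN* was lower. All 5 passed an adjusted p of 0.05 in edgeR, as did 54.2% of all genes tested. Of all genes, 27.6% were called higher and 26.7% lower, and the 4 higher and 1 lower of these 5 genes have to be read beside these shares. The median log2 fold change was -0.01 over all genes and 0.90 over the genes called higher. *FMOD* and *LUM* lay above the latter median, while *DCN* and *ASPN* lay below it. The levels of *DCN*, *LUM* and *FMOD* in NASH lay above those of every control, a separation that 18.0% of all genes showed. No member had every NASH animal below every control, which 15.7% of genes had.

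**Figure D1:**
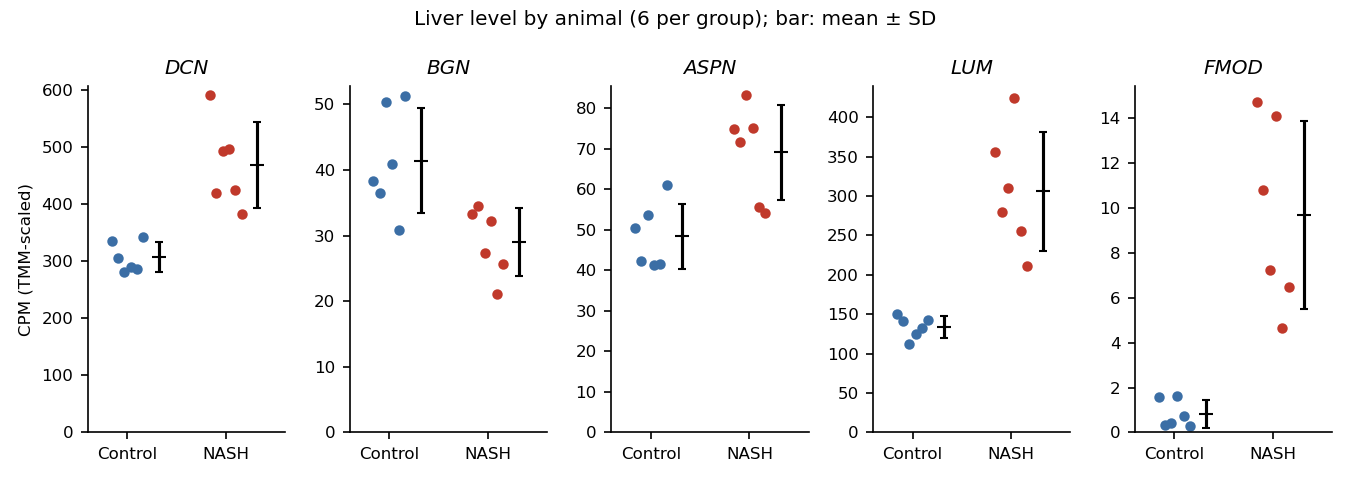
Level of each gene in each liver, in TMM-scaled CPM on axes that start at 0, with 6 controls in blue, 6 guinea pigs with NASH in red and the mean ± SD of each group as a bar. Every NASH liver lies above every control for *DCN*, *LUM* and *FMOD*, whereas the groups overlap for *ASPN* and for *BGN*, whose mean is lower in NASH.

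Decorin, the best studied member of class I of the family, binds type I collagen and transforming growth factor β. In controls *DCN* ranged from 281 CPM in animal 31 to 342 CPM in animal 56, with a median of 298. In NASH it ranged from 382 CPM in animal 65 to 591 CPM in animal 2, with a median of 459. The lowest NASH liver was therefore above the highest control. The mean rose from 307 ± 26.2 (SD, n = 6) to 468 ± 75.3 CPM (n = 6), 1.52-fold, which is 0.61 on the log2 scale (SE 0.11, adjusted p = 0.000335 in edgeR). Between 4690 and 17445 reads per animal stood behind these values. A liver sample is a mixture of cells, and a larger number of cells that express a gene cannot be told apart from more RNA of that gene per cell.

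Asporin, named for a stretch of aspartic acid residues, is a class I member that binds collagen and transforming growth factor β but lacks the usual attachment site of a sugar chain. *ASPN* ranged from 41.4 to 61.1 CPM in controls, with a median of 46.3, and from 54.2 to 83.3 CPM in NASH, with a median of 73.3. The overlap came from control 56, at 61.1 CPM, which was above NASH animals 41 (55.5) and 65 (54.2). The mean rose from 48.4 ± 8.06 to 69.1 ± 11.7 CPM (SD, n = 6 each), 1.43-fold, or 0.52 on the log2 scale (SE 0.13, adjusted p = 0.00524 in edgeR). The call was kept without any 1 animal, with adjusted p-values up to 0.0149.

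Biglycan, the class I member closest to decorin in sequence, signals through Toll-like receptors when it is released from the matrix. *BGN* was the only one of the 5 genes that was lower in NASH. It measured 36.5, 50.3, 40.9, 30.9, 38.4 and 51.3 CPM in controls 10, 31, 32, 45, 5 and 56, and 27.4, 33.3, 32.2, 21.1, 25.6 and 34.5 CPM in NASH animals 11, 2, 20, 41, 65 and 9. The overlap was due to control 45, the lowest control, which lay below NASH animals 2, 9 and 20. The mean fell from 41.4 ± 8.04 to 29.0 ± 5.21 CPM (SD, n = 6 each), which is -0.51 on the log2 scale (SE 0.15, adjusted p = 0.0107 in edgeR), and controls had 1.43 times the level of NASH animals. Leaving out any 1 animal kept the adjusted p between 0.0046 and 0.0257.

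This fall depended on how the libraries were scaled. With library size alone, the *BGN* log2 fold change was -0.03 (adjusted p = 0.879 in edgeR), while the median of all genes moved to 0.48. Relative to that median *BGN* stood at -0.51, the same distance as with TMM. With the size factors of DESeq2 it was -0.50 (adjusted p = 0.00387 in DESeq2). *BGN* was thus lower relative to most liver transcripts, while a difference in its share of all counts was not detected. The other 4 genes stayed higher in NASH under library size alone, with log2 fold changes of 1.10 for *DCN*, 1.001 for *ASPN*, 1.69 for *LUM* and 4.06 for *FMOD*.

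**Figure D2:**
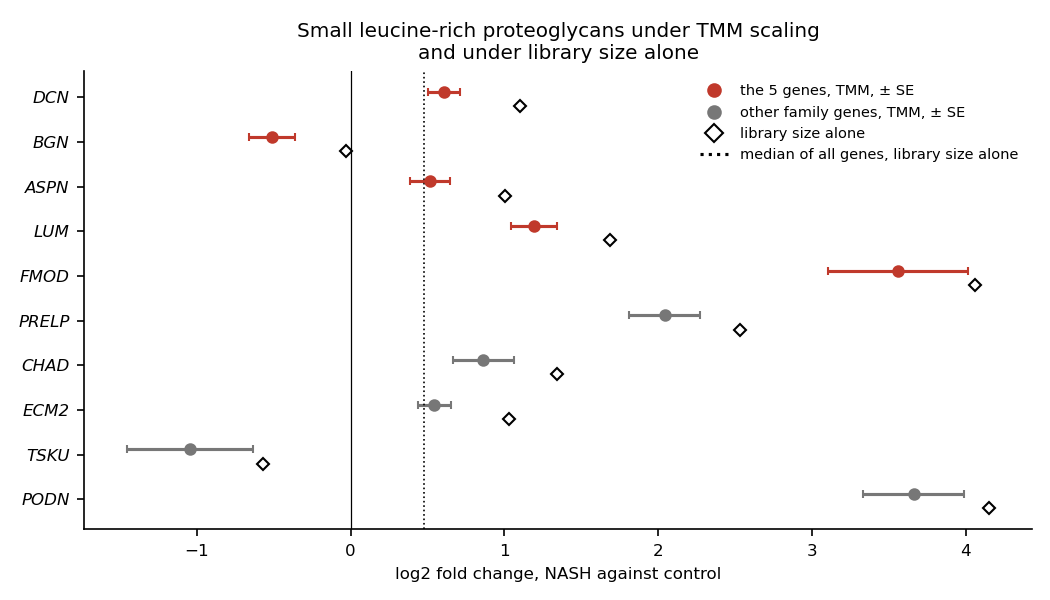
Log2 fold change of NASH against control for the 5 genes (red) and 5 other genes of the family (grey) with TMM scaling, ± SE, and with library size alone (open diamonds), under which the median of all genes (dotted line) was 0.48. The change of scale moves all genes to the right by about the same amount and takes *BGN* from -0.51 to -0.03, while *FMOD* and *PODN* stay farthest to the right.

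Lumican, of class II, sets the spacing of collagen fibrils and is abundant in the cornea. *LUM* ranged from 112 to 150 CPM in controls, with a median of 136, and from 211 to 424 CPM in NASH, with a median of 295. The highest control, animal 5, was well below the lowest NASH liver, animal 65. The mean rose from 134 ± 13.6 to 306 ± 75.5 CPM (SD, n = 6 each), 2.28-fold, or 1.19 on the log2 scale (SE 0.15, adjusted p = 2.51e-05 in edgeR), higher than 89.5% of all genes.

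Fibromodulin, the other class II member, shares a collagen binding site with lumican and guides the crosslinking of fibrils by lysyl oxidase. *FMOD* was nearly silent in control livers, at 0.309, 0.420, 1.61, 0.742, 1.58 and 0.271 CPM in animals 10, 31, 32, 45, 5 and 56, which were between 4 and 35 reads each. In NASH it measured 7.25, 14.7, 14.1, 4.65, 6.47 and 10.8 CPM in animals 11, 2, 20, 41, 65 and 9, from 183 to 455 reads. Each control was above the limit of 3 counts that a count of 0 would allow, and the lowest NASH liver was above every control. The mean rose from 0.821 ± 0.62 to 9.67 ± 4.19 CPM (SD, n = 6 each), 11.8-fold, or 3.56 on the log2 scale (SE 0.46, adjusted p = 3.52e-05 in edgeR), higher than 98.6% of all genes. It was the only one of the 5 that passed when the change had to exceed 1 on the log2 scale (adjusted p = 0.000528 with glmTreat of edgeR).

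Because the reads of *FMOD* were few in controls, the scale of the values decides how large its change appears. In the deposited rlog values, which shrink low counts towards the mean of a gene, the *FMOD* difference was 1.298, against 0.76 for *LUM*, 0.40 for *DCN*, 0.33 for *ASPN* and -0.30 for *BGN*. The order of the 5 genes was the same on both scales.

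Ratios of counts within an animal do not depend on library size or scaling, and they showed whether the genes changed by different amounts. For 10 pairs, log2 ratios with 0.5 counts added were compared between groups by a two-sided exact permutation test, whose smallest possible p is 0.00216. For 9 of the 10 pairs the ratios of the groups did not overlap and the test gave this smallest p (adjusted p = 0.00241 over the 10 pairs, exact permutation). There were 2.16 times more *DCN* reads per *BGN* read in NASH than in controls, a log2 difference of 1.11. *ASPN* gained on *BGN* by 2.03 times, *LUM* by 3.19 times and *FMOD* by 18.9 times. Biglycan therefore lost ground to every other member whichever scaling is used.

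The pair that did not separate was *DCN* and *ASPN*. The log2 ratio of *DCN* to *ASPN* was 2.68 ± 0.19 in controls and 2.76 ± 0.18 in NASH (SD, n = 6 each), a difference of 0.08 (exact permutation p = 0.446). The 95% interval of this difference, from inverting the exact test, ran from -0.17 to 0.33. *LUM* gained on *DCN* by 1.48 times and on *ASPN* by 1.57 times, and *FMOD* gained on *LUM* by 5.93 times. The ratio of the class II to the class I gene was higher in NASH in each of the 6 pairs that join the classes. The direction and call of the 10 results were kept with 5 counts added, with rlog values, and without any 1 animal. The differences were smaller in rlog values for each pair. The gain of *FMOD* on *LUM* was 1.45 times there and on *BGN* 3.04 times, and those of *DCN*, *ASPN* and *LUM* on *BGN* were 1.62, 1.55 and 2.09 times.

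**Figure D3:**
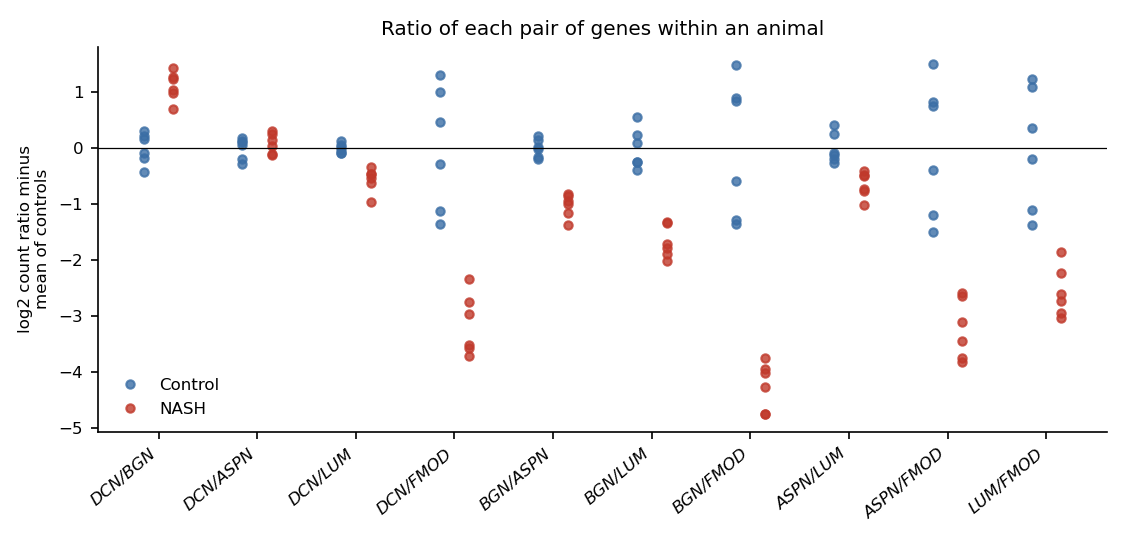
Log2 count ratio of each pair of genes within each animal, minus the mean of the controls for that pair, with 6 controls in blue and 6 guinea pigs with NASH in red. The groups are apart for 9 pairs and overlap for *DCN* to *ASPN*, and the widest spread among controls is in the ratios to *FMOD*.

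The makeup of the summed counts of the 5 genes shifted accordingly. Their summed level rose from 531 ± 45 to 882 ± 156 CPM (SD, n = 6 each), with controls between 491 and 597 and NASH livers between 679 and 1070. Of the summed counts, *BGN* made up 7.79% ± 1.45 in controls and 3.32% ± 0.556 in NASH (SD, n = 6 each). *LUM* made up 25.2% ± 1.71 and 34.4% ± 3.25, and *FMOD* 0.156% ± 0.117 and 1.07% ± 0.33. *DCN* made up at least 47.7% of the counts in every liver. These shares are given as a description, since longer transcripts yield more reads.

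Animals also differed within each group. The coefficient of variation of *DCN* was 8.54% in controls and 16.1% in NASH, and that of *LUM* 10.1% and 24.7%. For *BGN* (19.4% and 18.0%) and *ASPN* (16.7% and 16.9%) it was alike in both groups, and for *FMOD* it was 75.5% and 43.3%. Among guinea pigs with NASH, animal 65 was among the 2 lowest for all 5 genes and animal 41 for 4 of them. Animals 2 and 20 were each among the 2 highest for 4 genes. Among controls, animal 56 was among the 2 highest for 4 genes and lowest for *FMOD*.

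Over the 6 NASH livers, all 10 correlations between log2 CPM values of 2 members were positive, from 0.48 to 0.94 with a median of 0.70. The highest was between *BGN* and *FMOD*, with Pearson's r = 0.936 (exact permutation p = 0.0125, n = 6) and Spearman's rho = 0.829 (exact permutation p = 0.0583). It was 0.991 without the 2 animals farthest from the median of *BGN*, and its adjusted p over all 20 correlations was 0.25. Over the 6 controls 6 of 10 were positive, from -0.42 to 0.84. The highest there was between *DCN* and *LUM* at r = 0.839 (exact permutation p = 0.0319, n = 6, adjusted p = 0.259) and rho = 0.886 (exact permutation p = 0.0333). None of the 20 passed the adjustment, and in both groups some rested on 2 animals. Without the 2 animals farthest from the median of the first gene, in NASH *ASPN* with *FMOD* went from 0.654 to -0.715 and *ASPN* with *LUM* from 0.767 to -0.002. There *DCN* with *BGN* went from 0.481 to 0.204 and *DCN* with *FMOD* from 0.66 to 0.394. In controls *DCN* with *ASPN* went from 0.578 to -0.557, *DCN* with *BGN* from 0.249 to -0.371, *LUM* with *FMOD* from 0.063 to -0.998, *ASPN* with *LUM* from 0.079 to 0.844, *ASPN* with *FMOD* from -0.424 to 0.426 and *BGN* with *LUM* from -0.302 to -0.903. Also in controls, *BGN* with *FMOD* went from -0.377 to -0.191 and *DCN* with *FMOD* from -0.08 to -0.318. The values without the 2 animals rest on fewer than 6 animals. A difference between the groups in these correlations was not tested.

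**Figure D4:**
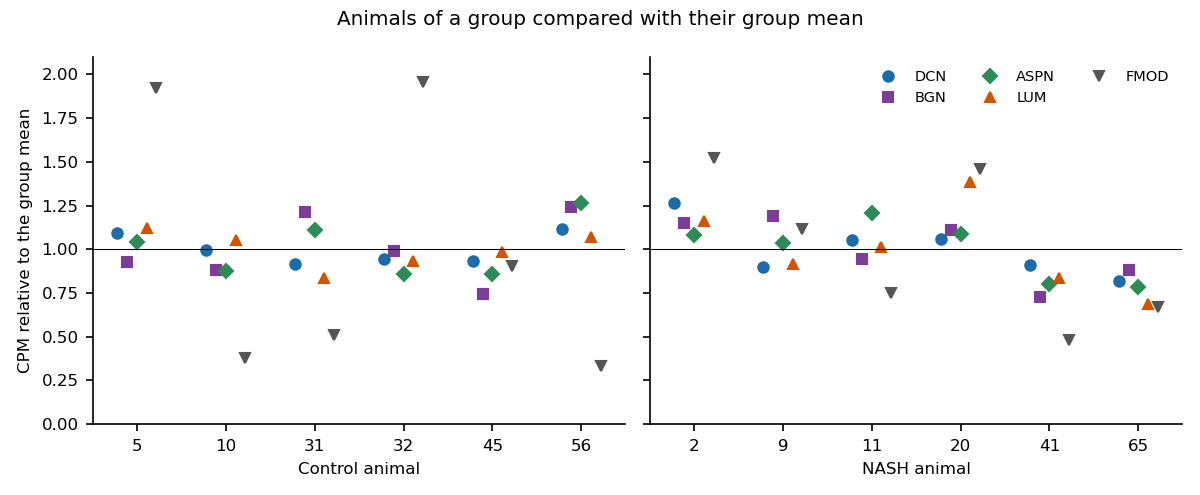
CPM of each gene in each animal relative to the mean of its group (line at 1), controls on the left and guinea pigs with NASH on the right, with 1 symbol per gene. In NASH the symbols of animals 41 and 65 lie below 1 for all 5 genes, and those of animals 2 and 20 above 1, while *FMOD* scatters most among controls.

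The genes whose levels followed each member most closely from animal to animal were sought among 11527 genes with a mean of at least 1 CPM, by the correlation r of log2 CPM over 12 animals after each group mean had been subtracted. These values are a description, without p-values, and genes measured in the same animal share its library and depth. For *DCN* they were *KCNS3* (0.93), a potassium channel subunit, *ITGB6* (0.87), an integrin subunit, and *CATIP* (0.855). For *BGN* they were *LHFPL6* (0.90), *PTGIS* (0.86), the prostacyclin synthase, and *PLAC9* (0.85). For *ASPN* they were *BAMBI* (0.90), a decoy receptor of the transforming growth factor β family, *SPARCL1* (0.90), a matrix glycoprotein, and *PRR14L* (0.89). For *LUM* they were *C15orf40* (0.92), *CATIP* (0.90) and *ODR4* (0.89). For *FMOD* they were *HYAL1* (0.95), a hyaluronidase, *MGP* (0.89), the matrix Gla protein, and *REEP3* (0.89, but 0.58 with rlog values). With rlog values *HYAL1* had 0.84 and *MGP* 0.86, and the controls had only 4 to 35 *FMOD* reads each. Among the members themselves the closest pair by this measure was *DCN* with *LUM* (0.81), and the next was *BGN* with *ASPN* (0.75).

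*DCN* and *LUM* are also neighbours on the chromosome. In the RefSeq annotation of assembly mCavPor4.1, which is not the Cavpor3.0 genome of the files, the order is *Kera*, *Lum* and *Dcn*, and in another cluster *Cenpp*, *Ecm2*, *Aspn* and *Omd*. The neighbours *LUM* and *DCN* did not change alike, since the log2 ratio of *DCN* to *LUM* fell by 0.56 in NASH. *ECM2* and *ASPN* lie within the span of *CENPP*, a centromere protein gene. *CENPP* had its own count row with 0 to 20 reads per control and 27 to 101 per NASH liver, against 702 to 1147 and 1549 to 2552 for *ASPN*. The library kit kept strand, but whether the counting used it is not given in the sources used here.

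Of 13 other genes of the family that were looked up, 5 were in the table, and 4 were called higher and 1 lower in NASH, where 27.6% and 26.7% of all genes were. With library size alone 4 were higher and 0 lower, where 63.9% and 7.66% of all genes were. *PODN*, or podocan, of class V, rose most of these, from 1.72 ± 0.736 to 22.1 ± 8.87 CPM (SD, n = 6 each), a change of 3.66 on the log2 scale (SE 0.33, adjusted p = 2.12e-06 in edgeR). *PRELP*, a class II member of connective tissue beneath epithelia, rose from 2.36 ± 0.351 to 9.68 ± 3.42 CPM, by 2.04 (SE 0.23, adjusted p = 1.13e-05 in edgeR). *ECM2*, related to decorin, rose by 0.54 on the log2 scale. *CHAD*, or chondroadherin, a class IV member of cartilage, rose by 0.86, with NASH animal 65 well above the others at 4.93 CPM. *PODN*, *PRELP* and *ECM2* had every NASH liver above every control, which 18.0% of all genes had, while *CHAD* overlapped between groups. *OMD*, *OGN*, *KERA*, *EPYC*, *CHADL*, *OPTC*, *PODNL1* and *NYX* were not analysed here.

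*TSKU*, or tsukushi, which hepatocytes secrete, was the other gene of the family, beside *BGN*, with a lower level in NASH. It ranged from 18.9 CPM in control 5 and 127 CPM in the next control up to 245 CPM, against 54.7 to 88.6 CPM in NASH. The change was -1.05 on the log2 scale (SE 0.41, adjusted p = 0.0451 in edgeR). Without control 5 the adjusted p was 8.75e-05, but without any 1 of the other animals it was between 0.0537 and 0.105. The call held in 3 of 21 alternative settings. It was also lost with library size alone (-0.57, adjusted p = 0.227 in edgeR), limma-voom (-0.73, adjusted p = 0.237), limma on rlog values (-0.50, adjusted p = 0.17) and both filters on low counts (adjusted p = 0.112 and 0.0658 in edgeR). Relative to the median of all genes, *TSKU* stood at -1.049 with library size alone.

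The collagens that these proteoglycans bind were measured beside them, and 8 of the 10 listed were found. All 8 were called higher and had no overlap between groups, with a median log2 fold change of 2.35, against 27.6% of all genes called higher and 18.0% so separated. *COL1A1* rose from 7.26 ± 3.62 to 135 ± 60.8 CPM (SD, n = 6 each), by 4.202 (SE 0.39), *COL6A3* by 3.11, *COL1A2* by 2.56 and *COL3A1* by 2.003. Ratios of each member to *COL1A1* and *COL3A1* within an animal were added after the data had been seen, as 10 comparisons. Per *COL1A1* read there were 12.7 times fewer *DCN* reads in NASH, 27.3 times fewer *BGN* reads, 13.4 times fewer *ASPN* reads and 8.57 times fewer *LUM* reads. Per *COL3A1* read the factors were 2.44, 5.27, 2.59 and 1.65, and for these 8 ratios the groups did not overlap (adjusted p = 0.00271, exact permutation). In rlog values the factors per *COL1A1* were 4.39, 7.13, 4.60 and 3.41 and those per *COL3A1* 1.78, 2.90, 1.87 and 1.39, with the same directions and calls.

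*FMOD* differed from the other 4 members here. Its log2 ratio to *COL1A1* was -3.28 ± 1.22 in controls and -3.81 ± 0.34 in NASH (SD, n = 6 each), a difference of -0.53 with a 95% interval from -1.72 to 0.50 (exact permutation p = 0.381). This result depended on the few control reads, as the difference was -0.96 (adjusted p = 0.0325, exact permutation) with 5 counts added and -1.23 (adjusted p = 0.00241, exact permutation) in rlog values. Relative to *COL3A1*, *FMOD* gained 3.59 times (adjusted p = 0.00722, exact permutation), with overlapping groups, but the difference was 0.07 (adjusted p = 0.617) in rlog values.

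Enzymes that build the chondroitin and dermatan sulfate chains of decorin and biglycan were looked up next. Of 20 found, 8 were called higher, 2 lower and 10 not, with a median log2 fold change of 0.21. The 50% called was near the 54.2% over all genes, and with library size alone, under which 63.9% of all genes were called higher and 7.66% lower, 15 were higher and 1 lower. *CHST3* (1.71), a chondroitin sulfotransferase, *CHST11* (1.16) and *CSGALNACT2* (0.62) rose most. *DSE*, the epimerase that turns chondroitin into dermatan sulfate, rose by 0.57, with a count row shared by another symbol. *PXYLP1*, the phosphatase that frees the linker for chain growth, fell by 1.36. *B4GALT7*, which builds the linker, had -0.20 (adjusted p = 0.0242 in edgeR). With library size alone it was called in the opposite direction (0.28, adjusted p = 0.00248 in edgeR), though still -0.195 relative to the median of all genes, and it lost its call with both filters on low counts and without NASH animal 9 or 20. For keratan sulfate, on lumican and fibromodulin, 4 of 8 enzymes were called higher and 1 lower, with a median of 0.30, so that 62.5% were called beside 54.2% over all genes. With library size alone 6 were higher and 0 lower, beside the same shares of all genes. *FUT8* (1.37), the core fucosyltransferase of N-glycans, and *B4GALT4* (1.22) rose, *B3GNT7* had 0.92 but lost its call without any of 8 animals (adjusted p up to 0.0825 in edgeR), and *B4GALT1* had -0.37 and 0.12 with library size alone.

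Of 7 other matrix proteoglycans found, 5 were called higher and 0 lower, beside 27.6% and 26.7% of all genes, with a median of 1.08. *ESM1*, or endocan, of endothelial cells, rose by 2.60 and *HSPG2*, the perlecan of basement membranes, by 1.10. *SPOCK1* had no read in any control and 33 to 105 reads in NASH, which is at least 9.49-fold higher when set against 0.215 CPM, the highest level that 3 counts gave in a control.

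Of 15 receptors of these proteoglycans, 8 were called higher, 1 lower and 6 not, with a median of 0.65. The 60% called was close to the 54.2% over all genes, and with library size alone 13 were higher and 0 lower, beside 63.9% and 7.66% of all genes. *IGF1R* (2.38), a receptor of decorin, *ITGAM* (1.84), a macrophage integrin subunit, *CD44* (1.54), a co-receptor of biglycan, and *TLR4* (1.05) rose. Reads were few in controls for *IGF1R* (0 to 32) and *ITGAM* (0 to 41). *ITGAM* (adjusted p = 0.127 in edgeR) and *TLR4* lost their calls when the change had to exceed 1 on the log2 scale. *TLR2* had 1.75 (adjusted p = 0.0907 in edgeR), and NASH animal 9 and 1 control had no *TLR2* read. Without 1 animal the value ranged from 1.465 to 2.011 and the adjusted p from 0.00991 to 0.146, and of these only leaving out NASH animal 9 gave a call. It was also called with library size alone (2.23, adjusted p = 0.0287 in edgeR) and with limma on rlog values (0.57, adjusted p = 0.0437). *EGFR*, which decorin binds, had -0.955 with an adjusted p of 0.0438 in edgeR, and kept the call in 6 of 21 alternative settings. The call was lost without any of 8 animals (adjusted p up to 0.093 in edgeR) and with both filters (-0.869 and -0.897, adjusted p = 0.102 and 0.0615 in edgeR). Limma-voom (-0.94, adjusted p = 0.0619) and limma on rlog values (-0.584, adjusted p = 0.0583) lost it too. With library size alone it was also lost (-0.473, adjusted p = 0.246 in edgeR), but *EGFR* stood at -0.949 relative to the median of all genes.

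Of 7 growth factors held by these proteoglycans, 4 were called higher and 1 lower, with a median of 0.80. That is 71.4% called, beside 54.2% over all genes. *TGFB3* (2.73), *TGFB1* (1.25) and *TGFB2* (0.95) rose, and *IGF1*, a hormone mainly of hepatocytes, fell by 1.24. Of 10 proteases and chaperones, 3 were called higher, 1 lower and 6 not, with a median of 0.23. The 40% called was below the 54.2% over all genes, and with library size alone 9 were higher and 0 lower, beside 63.9% and 7.66% of all genes. *MMP2* (2.01), the gelatinase A, and *ADAMTS4* (1.39), an aggrecanase, rose. *MMP12*, the macrophage elastase, had 19 reads in 1 control, at most 3 in the others and 900 to 3388 in NASH. With that control left out it was at least 264-fold higher in NASH, set against 0.215 CPM, the highest level that 3 counts gave in a control. With it the means were 0.145 ± 0.356 and 56.7 ± 26.4 CPM (SD, n = 6 each). *BMP1*, which cleaves the propeptide of biglycan, had -0.03 (adjusted p = 0.879 in edgeR). With library size alone *BMP1* was called higher (0.44, adjusted p = 0.0358 in edgeR), but stood at -0.035 relative to the median of all genes. *GZMB*, a granzyme that can cut decorin and biglycan, had -0.76, with the call lost without control 56 or NASH animal 41 (adjusted p = 0.0571 and 0.0533 in edgeR), with library size alone (-0.293, adjusted p = 0.32) and with every row of at least 1 count (adjusted p = 0.0628).

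**Figure D5:**
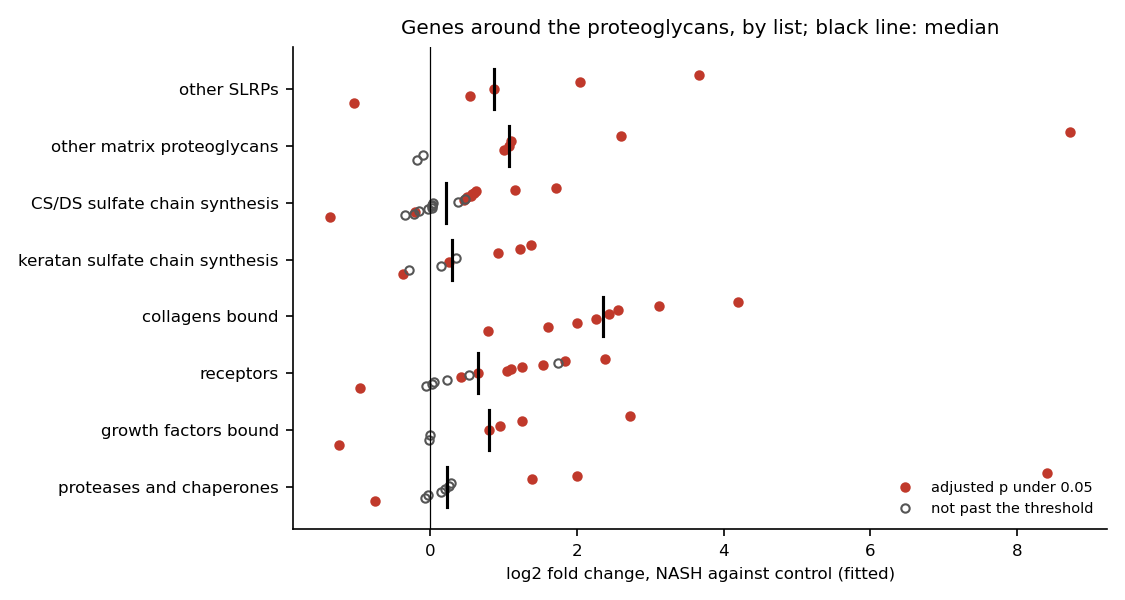
Fitted log2 fold change of NASH against control for each gene of 8 lists around the 5 proteoglycans, with filled points past an adjusted p of 0.05 and a black line at the median of each list (SLRP, small leucine-rich proteoglycan; CS/DS, chondroitin and dermatan). The collagens lie farthest to the right as a list, with a median of 2.35, and the enzymes of the sugar chains lie near 0.2 to 0.3; the point beyond 8 among matrix proteoglycans, *SPOCK1*, had no read in controls, so its fitted value is no measure of size.

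Markers of cells that make or could carry these transcripts moved as follows, where 27.6% of all genes were called higher and 26.7% lower. The summed level of 8 stellate cell markers was 354 to 426 CPM in controls and 739 to 1220 CPM in NASH, and 4 were called higher and 1 lower. Most of this rise was *RGS5*, at a mean of 86.1 CPM in controls and 525 CPM in NASH. The marker called lower was *LRAT*, with means of 48.5 and 32.4 CPM (-0.582, adjusted p = 0.00074 in edgeR). The sum of 7 myofibroblast markers was 115 to 192 and 137 to 220 CPM, with 2 higher and 2 lower. *TPM2*, the most abundant over all animals, had means of 51.2 and 35 CPM, while *ACTA2* had 26.2 and 57.7 CPM and was called higher (1.145, adjusted p = 0.00984 in edgeR). That of 6 portal fibroblast markers was 153 to 186 and 123 to 166 CPM, with 3 higher and 2 lower. Most of this sum was *FBLN1*, with means of 137 and 99.3 CPM, which was called lower (-0.459). The median log2 fold change of these markers was 0.84. None of 4 smooth muscle markers, led by *SMTN*, was called, with sums of 68.1 to 108 and 63.9 to 93.4 CPM. The part of these cells in the levels of the proteoglycans was not tested.

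The 6 hepatocyte markers, led by *ALB*, summed to 99400 to 121000 CPM in controls and 41700 to 64100 CPM in NASH, and 5 were called lower and 0 higher, beside 26.7% and 27.6% of all genes, which are the shares for the lists that follow too. The 4 cholangiocyte markers, led by *KRT19*, summed to 63.2 to 93.8 and 264 to 480 CPM, and all 4 were higher. *KRT19* was also the only marker of mesothelial cells found, at 34.8 to 70.5 and 140 to 213 CPM. For cartilage and bone cells, in which *ASPN*, *FMOD* and *CHAD* are abundant, 3 of 7 markers were found, with sums of 3.87 to 8.08 and 6.30 to 9.86 CPM. *COMP* (2.04 and 3.83 CPM) was called higher, and *ACAN* (2.74 and 2.44 CPM) and *SP7* (1.67 and 1.48 CPM) were not called. Sums for 5 endothelial markers, led by *STAB2*, were 363 to 439 and 418 to 593 CPM, with 3 higher and 1 lower. Those for 5 macrophage markers, led by *CD68*, were 293 to 520 and 353 to 526 CPM. Of these, *CD68* (0.681) and *TREM2* (from 0.0689 to 12.2 CPM) were called higher and *MARCO* (-1.281) lower. Those of 6 T cell markers were 56.9 to 111 and 33.0 to 61.2 CPM and were mostly *CD3E*, which was called lower (-1.073), while *CD8A* was called higher (1.277) and the other 4 were not called. All 3 erythroid markers found were higher, with sums led by *HBA1* of 57.2 to 172 and 424 to 4510 CPM. The part of these cells in the results was not tested either.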

How the data were processed

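Liver RNA of 6 controls and 6 guinea pigs with NASH was analysed as deposited. The authors trimmed reads with Trimmomatic 0.38.0, mapped them with HISAT2 2.1.0 to Cavpor3.0 and quantified them with StringTie 1.3.6, and deposited raw counts of 39061 loci and genes without symbols. The authors also deposited log2 values (the rlog of DESeq2) for 11896 human symbols. Repeating that rlog on rows with at least 200 counts returned every symbol's values to within 8e-07, which gave the 11031 count rows behind the symbols. Of all counts, 78.2% to 79.9% lay in these rows.

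Counts were tested with edgeR 4.0.16 in R 4.3.3 (TMM, robust glmQLFit, glmQLFTest), with Benjamini-Hochberg adjustment over all symbols and a threshold of 0.05. The standard error is the log2 fold change over the square root of F. Ratios and correlations used exact permutation tests. Figures were drawn with matplotlib 3.10.9. Alternatives were RLE factors, library size alone, DESeq2 1.42.0, limma 3.58.1 (voom, and on rlog values), 2 filters on low counts, 2 thresholds and each animal left out. Procedures were tested on simulated data. Symbols were matched to RefSeq for 86.9% of the table and for all 5 members. The spread between animals was at least 45 times the counting variance in each pair of a group, over all genes together.

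Named were the 5 members, every other family gene found, up to 3 of the highest and 2 of the lowest called genes of each list with 8 fixed ones (*TLR2*, *TLR4*, *TGFB1*, *BMP1*, *XYLT1*, *DSE*, *COL1A1*, *COL3A1*), the most abundant marker of each cell type, 3 genes of similar pattern per member, and genome neighbours. *TREM2*, *MARCO*, *CD8A*, *ACTA2*, *LRAT*, *ACAN* and *SP7* were named after their values were seen. *XYLT1* was not analysed here. The members and lists were chosen with earlier results of these data known.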

Additional observations from a re-analysis of the deposited data

Results flagged for a closer look

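Of 60 sets of 6 animals checked for a single animal far from the others, 1 was marked, where chance marks about 1 in 20. *CHAD* in guinea pigs with NASH was 4.93 CPM in animal 65, and the gap to the next animal was 0.71 of the range of the group. *CHAD* kept its call without any 1 animal, with adjusted p-values up to 0.00723 in edgeR. Animal 65 was the NASH liver with the lowest *DCN*, *ASPN* and *LUM*. None of the 5 proteoglycans had such an animal in either group.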

How the results depend on the processing

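Over 21 alternative settings per gene, the 5 members kept direction and call in 99 of 105 fits, and all kept direction. When the change had to exceed 1 on the log2 scale (glmTreat), calls were lost for *DCN* (0.608, adjusted p = 1 in edgeR), *BGN* (-0.512, adjusted p = 1), *ASPN* (0.516, adjusted p = 1) and *LUM* (1.192, adjusted p = 0.264). *BGN* was also not called with library size alone (-0.03) or at a threshold of 0.01 (-0.512, adjusted p = 0.0107). Without 1 animal the log2 fold changes ranged from 0.521 to 0.649 for *DCN*, -0.584 to -0.435 for *BGN*, 0.455 to 0.593 for *ASPN*, 1.076 to 1.268 for *LUM* and 3.388 to 3.904 for *FMOD*. Over all genes, 3279 were called higher and 3171 lower with TMM, against 7600 and 911 with library size alone, 5985 and 4828 with every row of at least 1 count, and 845 and 251 with glmTreat. With the rows kept by filterByExpr they were 5089 and 4734. Without 1 animal they were 3047 to 3235 and 2957 to 3169. The last filter and the filter on 1 count test more rows, and glmTreat asks for a change beyond 1 on the log2 scale. Library size alone leaves out the TMM factors, which did not overlap between groups, and the median of all genes was 0.476 there. Other reasons for these shifts were not tested. With library size alone, *B4GALT7* (0.281), *B4GALT1* (0.116) and *BMP1* (0.441) had positive values, and *B4GALT7* and *BMP1* were called higher. Relative to the median of all genes there (0.476) these genes stood at -0.195, -0.36 and -0.035, against -0.202, -0.374 and -0.033 with TMM. All 140 alternatives of the ratios between members, 137 of 140 for ratios to collagens and 38 of 40 for correlations kept their result. The authors assigned animals to groups in blocks by body weight, but the labels give no block or pair, so no paired analysis was possible. The labels give no litter or cage, and with 6 animals per group only large correlations could pass.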
